A study of Mus musculus with 91 samples.

Results

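Interferon response genes are the genes that cells switch on after an interferon binds its receptor. The set described here held 36 listed genes, taken by symbol from the annotation of the array platform: transcription factors of the pathway, antiviral effectors, nucleic acid sensors, interferon-inducible GTPases, antigen processing genes and chemokines. Of these, 34 had a probe set that names a single gene and are the members analysed, out of 18193 genes tested. Isg15, whose only probe set is shared with another gene, and Ifi44 were not analysed here.

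Type I interferons signal through a receptor, Janus kinases and a complex of STAT proteins with Irf9 that binds interferon-stimulated response elements in promoters. Interferon gamma acts through a second receptor and induces Irf1, the guanylate-binding proteins, the immunity-related GTPases, the immunoproteasome and the chemokines Cxcl9 and Cxcl10. Usp18 removes the ubiquitin-like protein ISG15 from its targets and restrains signalling at the type I receptor. In liver, hepatocytes, Kupffer cells and infiltrating leukocytes can all express such genes.

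The members were read in 91 livers of adult male mice in 19 groups, each measured on a mouse Affymetrix array as log2 values. All mice were on a C57BL/6J background, and those labelled hCAR/hPXR are named in the labels as C57BL/hCAR/hPXR. The series compared livers after exposure to carcinogenic and non-carcinogenic chemicals. Groups held 5 mice, apart from 4 each in the PBO, CMC Co1, CMC Co3 and CMC Co5 groups. Phenobarbital (PB) was given in drinking water at 0.05% w/v for 28 or 56 days, against water (H2O) of the same day. Every other exposure lasted 28 days. Cyproterone acetate (CPA, 160 mg/kg) and 1,4-dichlorobenzene (DCB, 600 mg/kg) were given by gavage and share the corn oil (CO) controls. CITCO, an activator of the receptor CAR, was injected intraperitoneally at 10 mg/kg into mice labelled C57BL, with control cohort CMC Co4, and into hCAR/hPXR mice, with their own CMC controls. Piperonyl butoxide (PBO, 600 mg/kg, intraperitoneal) had cohort CMC Co2 as its control, and WY (100 mg/kg, gavage), the PPAR alpha agonist Wy-14643, had CMC Co1. Pioglitazone (Pio, 100 mg/kg, gavage) had CMC Co5, and methapyrilene (MePy, 1000 ppm in food) had CMC Co3 although it was given in food. Alb, Ttr and the other hepatocyte markers were high in every group, with group means of the 7 measured markers between 13.61 and 13.92 on the log2 scale.

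Promoter sequences are shown for the interferon-inducible GTPase genes Gbp3, Gbp2b, Igtp and Irgm2, because these 4 are the members that fell under PBO, and Gbp3 fell under CPA too. Each run gives the bases just before the annotated gene, from RefSeq promoter windows of mouse build GRCm38.p6, 5′ to 3′ on the gene's strand. Capitals mark matches to GAAA, any 2 bases and GAAA again, a core of the interferon-stimulated response element, searched on both strands. A match on the opposite strand reads TTTC, any 2 bases and TTTC here. Gbp3 lies at chr3:142559894-142560015 (+), Gbp2b at chr3:142594697-142594815 (+), Igtp at chr11:58199406-58199555 (+) and Irgm2 at chr11:58214827-58214976 (+).
Gbp3: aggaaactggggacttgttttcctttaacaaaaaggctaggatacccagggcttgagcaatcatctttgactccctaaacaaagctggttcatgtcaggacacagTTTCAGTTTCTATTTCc
Gbp2b: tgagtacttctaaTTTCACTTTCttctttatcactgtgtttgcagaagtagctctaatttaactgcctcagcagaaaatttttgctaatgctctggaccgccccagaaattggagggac
Igtp: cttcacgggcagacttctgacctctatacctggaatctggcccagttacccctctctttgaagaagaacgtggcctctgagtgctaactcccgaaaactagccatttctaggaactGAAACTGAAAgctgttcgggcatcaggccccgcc
Irgm2: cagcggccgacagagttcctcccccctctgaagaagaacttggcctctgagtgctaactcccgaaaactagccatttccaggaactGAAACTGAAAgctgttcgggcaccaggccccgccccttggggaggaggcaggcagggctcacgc

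Gbp3 holds 2 overlapping matches on the opposite strand, Gbp2b holds 1 on that strand, and the neighbours Igtp and Irgm2 each hold 1 on the gene's own strand. The GTPase genes Gbp2 and Irgm1, which were not called under PBO, also hold matches within the 250 bases before the start. The printed Igtp and Irgm2 stretches share an unbroken run of 38 bases, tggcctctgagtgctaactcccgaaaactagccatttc, which lies just upstream of the match in both. Of the 36 listed genes, 27 had a promoter window, and 15 of those (55.6%) held this core within the 250 bases before the start, against 3.46% of all 27025 genes with a window. The gamma-activated motif TTCNNNGAA, which reads the same on both strands, was in 7 of the 27 (25.9%) against 8.13% of all genes. These are matches of letters, not measured binding. Among the members that fell under CPA, Gbp3 and Oas1a held the first motif, Irf7, Irf9 and Ifit2 had a window without it, and Usp18 and Ifi27l2a had no window in the table.

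Of the treatments, CPA changed the most members, all towards a lower level, and the other treated groups showed few or no calls. In limma with Benjamini-Hochberg adjustment over all 18193 genes at an adjusted p below 0.05, 7 of 34 members fell under CPA and none rose. Under PBO 4 fell, under WY 1 rose, and none passed with DCB, MePy, Pio, PB or CITCO. Of all genes, 2.70% were called lower under CPA, 0.319% lower under PBO and 5.55% higher under WY. In the comparisons without a called member, 0.0055% to 3.83% of all genes were called. Among untreated livers, the CMC control cohorts themselves differed in 16 of the 34, and in 33.2% of all genes.

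**Figure D1:**
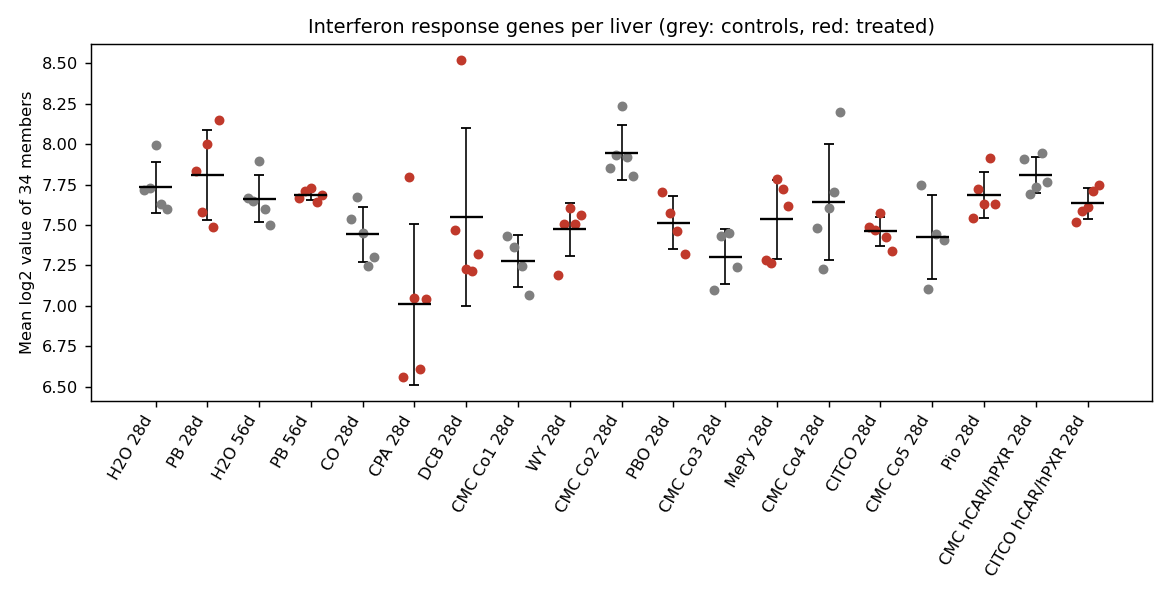
Mean log2 value of the 34 members in each liver (points), by group, with controls in grey and treated groups in red; lines and bars give the group mean and SD. CPA has the lowest mean of the 19 groups (7.01) and cohort CMC Co2 the highest (7.95), and replicate 2 of CPA and of DCB lie above the rest of their groups.

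Per liver, the mean of the 34 members was 7.01 ± 0.50 (SD, n = 5) in the CPA group and 7.44 ± 0.17 (n = 5) in its CO controls. The CPA group mean was the lowest of all 19 groups for 20 of the 34 members. The CMC Co2 group mean was the highest of all 19 for 13 members, and its mean over the set was 7.95 ± 0.17 (n = 5). A pair of treated livers stood apart upwards. Replicate 2 of CPA had a member mean of 7.80, while the other CPA livers lay between 6.56 and 7.05. Replicate 2 of DCB had 8.52, and the other DCB livers lay between 7.21 and 7.47. All 34 members were above their group mean in that DCB liver, and 32 of 34 in that CPA liver.

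CPA is a steroidal antiandrogen and progestin. The median member was lower by a log2 difference of -0.42 in CPA livers, where the median over all genes was 0.02, and 5 of the 34 differences were above 0. The 7 members that fell are 20.6% of the set, against 5.32% of all genes called in either direction and 2.70% called lower. By role, the members that fell were Usp18, 2 of 4 transcription factors, 3 of 13 antiviral effectors and 1 of 7 GTPases. None of the 4 sensors and PARP genes, 3 antigen processing genes or 2 chemokines passed. These are whole livers, so fewer cells of a type and less RNA per cell cannot be told apart.

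**Figure D2:**
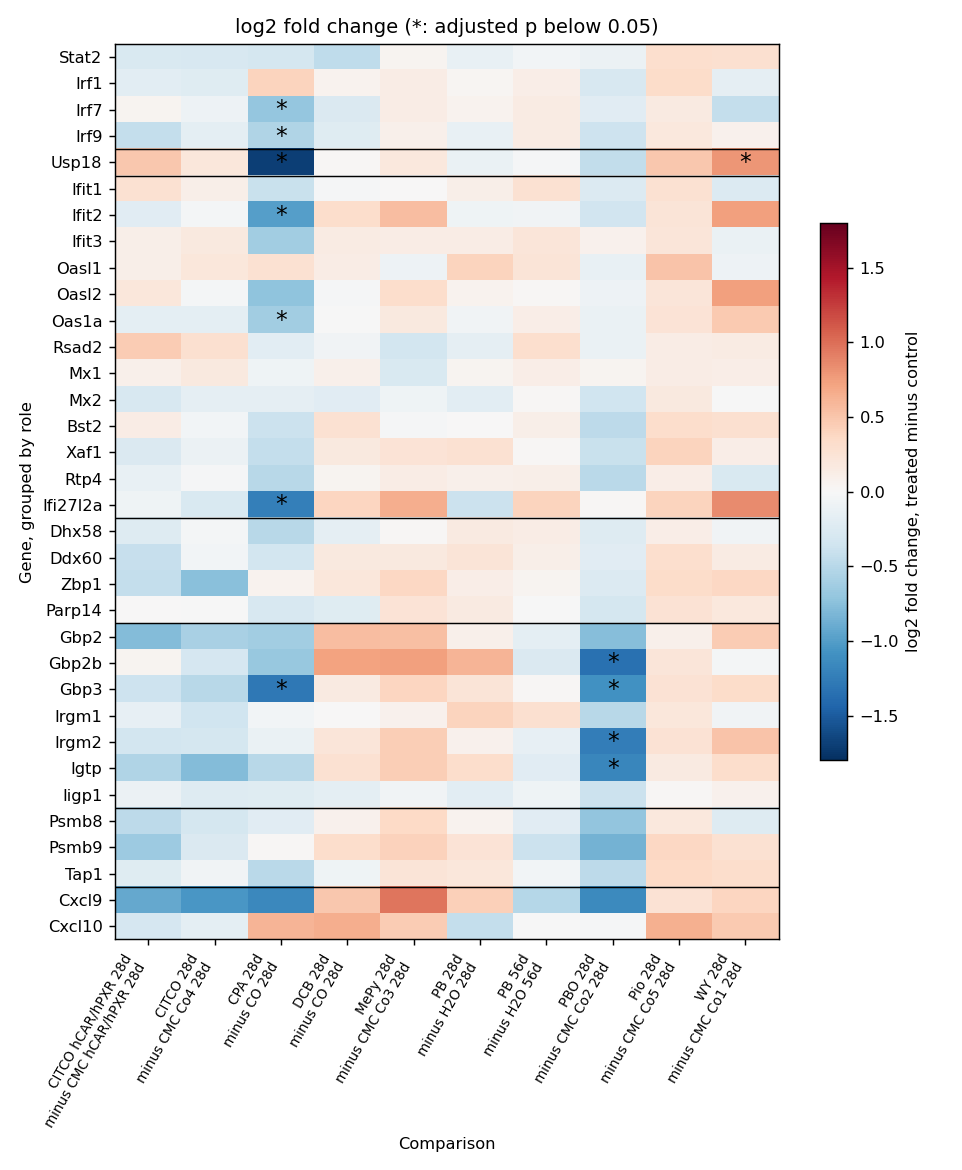
Log2 fold change, treated minus control, of each member (rows, separated by role) in each comparison (columns), with stars where the adjusted p is below 0.05. The CPA column is lower for most genes and strongest at Usp18, the PBO calls lie among the GTPases, and the Pio column is above 0 throughout.

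Usp18 (chr6:121245906-121270917), the deconjugase that restrains the type I receptor, had the largest difference. Its log2 values in the 5 CO livers were 7.82, 8.17, 7.72, 7.65 and 7.59, and in the 5 CPA livers 5.27, 6.92, 6.81, 5.42 and 6.05. Every CPA liver was below every CO liver. The log2 difference was -1.69 ± 0.22 (SE), 3.23-fold lower, with a limma adjusted p of 2.12e-08, and the gene ranked 22 by p among all genes. That SE rests on the spread shared by all 19 groups. Over the other settings and the fits with 1 liver left out, the largest limma adjusted p was 0.0137.

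Among the transcription factors, Irf7, the factor that amplifies type I interferon expression, read 7.71, 7.64, 7.64, 7.64 and 7.96 in CO livers and 6.65, 7.11, 7.10, 7.16 and 7.06 in CPA livers. The groups did not overlap, and the log2 difference was -0.70 ± 0.18 (SE; limma adjusted p = 0.0104). Irf9, the DNA-binding part of the type I complex, differed by -0.54 ± 0.15 (adjusted p = 0.0163), with the groups overlapping and 2 of 5 CPA livers below all CO livers. Stat2 (-0.31, adjusted p = 0.298) and Irf1 (0.41, adjusted p = 0.345) did not pass. Irf1 read 12.00 in CPA replicate 2 and between 8.73 and 9.70 in the other CPA livers.

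Among the antiviral effectors, Ifi27l2a read 7.17, 7.90, 7.45, 6.93 and 7.62 in CO livers and 5.43, 7.54, 6.11, 5.37 and 6.48 in CPA livers. Only replicate 2 of CPA reached into the CO range, and the log2 difference was -1.23 ± 0.29 (SE; limma adjusted p = 0.00421). Ifit2, which binds viral RNA and restrains its translation, read 5.56, 6.42, 5.68, 5.16 and 5.30 in CO livers and 4.51, 4.52, 4.76, 4.73 and 4.63 in CPA livers. The groups did not overlap, and the difference was -0.995 ± 0.25 (adjusted p = 0.00656). Oas1a, a sensor of double-stranded RNA that makes 2-5A, differed by -0.62 ± 0.18 (adjusted p = 0.0239). Of the 10 effectors that did not pass, Oasl2 (-0.72, adjusted p = 0.0913) and Bst2 (-0.39, adjusted p = 0.0771), the virion tether, also had every CPA liver below every CO liver, while Oasl1 read 0.27 higher (adjusted p = 0.471).

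Of the GTPases, Gbp3 (chr3:142560016-142573213), a guanylate-binding protein that acts at pathogen vacuoles, read 6.998, 7.53, 6.97, 6.43 and 6.91 in CO livers and 5.28, 6.59, 5.02, 5.59 and 5.89 in CPA livers. Again only replicate 2 of CPA lay within the CO range, and the log2 difference was -1.29 ± 0.26 (SE), 2.45-fold lower, with a limma adjusted p of 5.91e-04. The immunity-related GTPases Irgm1 (-0.05), Irgm2 (-0.12), Igtp (-0.49) and Iigp1 (-0.21) did not pass, with adjusted p-values from 0.331 to 0.923. The chemokines had wide spreads. Cxcl10, a ligand of CXCR3, read 12.11 in CPA replicate 2 and between 5.87 and 6.59 in the other CPA livers, against 6.19 to 7.24 in CO livers.

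**Figure D3:**
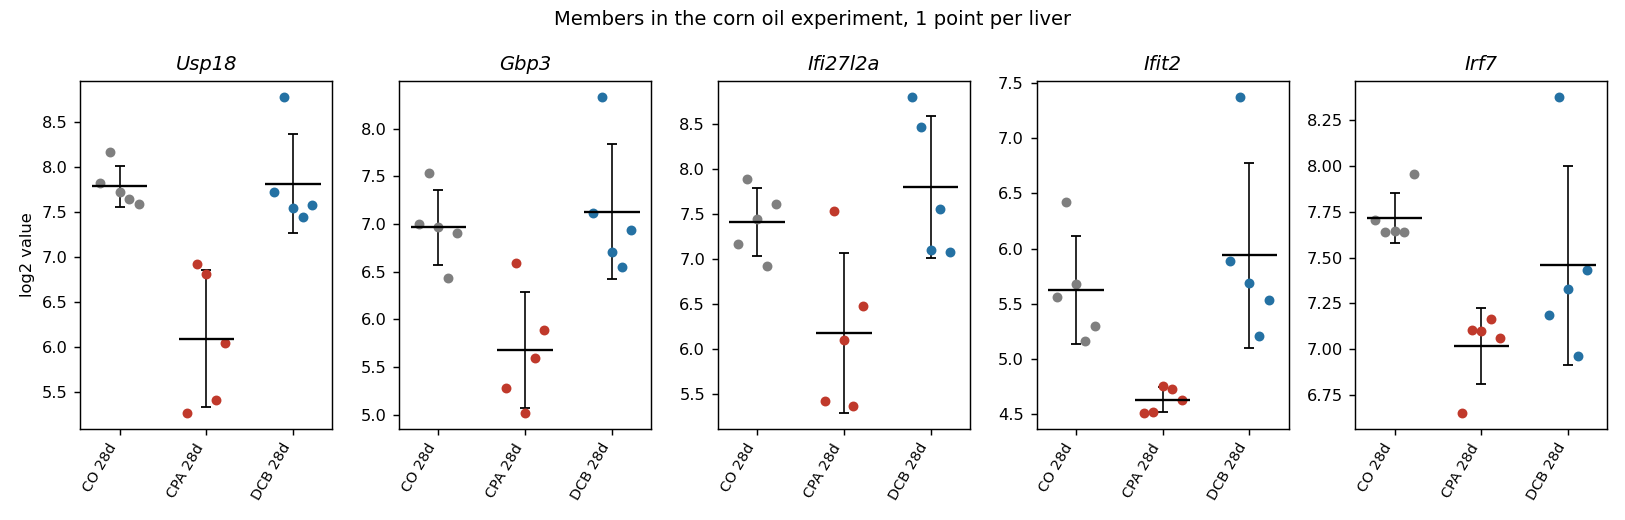
Log2 values of Usp18, Gbp3, Ifi27l2a, Ifit2 and Irf7 in the livers given corn oil (grey), CPA (red) and DCB (blue), with group means and SDs. All 5 CPA livers lie below all 5 CO livers for Usp18, Ifit2 and Irf7, and DCB replicate 2 is the highest DCB liver in all panels but Ifi27l2a.

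CPA replicate 2 also had the highest monocyte (8.71), neutrophil (8.05) and acute phase (13.89) marker means of its group. The other CPA livers lay between 6.08 and 6.99 for monocyte, 5.70 and 6.73 for neutrophil and 11.18 and 13.71 for acute phase markers. Under CPA 1 of 5 monocyte, 0 of 5 neutrophil and 3 of 12 acute phase markers rose, and their part in its member values was not tested. Without that liver 3.31% of all genes were called and 11 members fell, the 7 above with Ifit3, Rtp4, Dhx58 and Cxcl9 (-1.78, adjusted p = 0.00859). The Cxcl10 difference was then -0.60 in place of 0.60. Without CO replicate 2 the count was 4. Oas1a and Irf9 did not pass without CPA replicate 1, CPA replicate 4, CO replicate 1 or CO replicate 2, with log2 differences from -0.60 to -0.40 for Oas1a and from -0.50 to -0.36 for Irf9. Ifit2 did not pass without CO replicate 2 (-0.80, adjusted p = 0.0628). Fitted on the CPA and CO livers alone, Ifi27l2a (adjusted p = 0.107), Oas1a (0.205) and Irf9 (0.312) did not pass. Over all other settings, this one included, the count ran from 6 to 13, so members outside the 7 passed in that fit.

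Of 72 further pathway genes measured, 6 fell and 1 rose under CPA (9.72%, against 5.32% of all genes). The 1 that rose was the signalling factor Irf3 (0.23). Those that fell were Gbp7 (-0.76), Trim30a (-0.75), Samd9l (-0.64), H2-D1 (-0.41), H2-K1 (-0.29) and B2m (-0.22), the last 3 being parts of MHC class I. None of the 5 measured interferon ligand genes (Ifna1, Ifna2, Ifna4, Ifnb1 and Ifng) passed in any comparison, and their group means stayed between 3.46 and 5.84 in all 19 groups. MHC class II genes moved with the members: H2-Aa (-2.24), H2-Ab1 (-1.93), H2-Eb1 (-1.43) and Cd74 (-1.20) fell, 4 of the 9 markers of that list, whose mean per liver was 5.70 to 6.15 with CPA and 6.52 to 6.89 with CO. Of the 7 hepatocyte markers, Apoa1 (-0.14) and Hnf4a (-0.47) fell, and none of the 7 differences was above 0. The hepatocyte list mean was 13.14 to 13.95 per liver with CPA and 13.81 to 13.99 with CO. No Kupffer cell, T cell or B cell marker passed under CPA. The 5 B cell markers still had a median log2 difference of -0.43, with 1 of 5 above 0. The B cell list mean was 5.05 to 5.44 per liver with CPA and 5.33 to 6.06 with CO. The part of MHC class II expressing cells, of B cells and of hepatocytes in the result was not tested.

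DCB, compared with the same CO livers as CPA, showed no member past the threshold in limma. Of all genes 3.83% passed. At an unadjusted p below 0.05, 2 members were higher and 1 lower, where 14.9% of all genes reached that level. The largest log2 differences were Gbp2b (0.73), Cxcl10 (0.65), Gbp2 (0.56) and Cxcl9 (0.49), with adjusted p-values from 0.240 to 0.715. DCB replicate 2 was the highest liver of its group for all 4, and read 7.22 for Gbp2b, 9.42 for Cxcl10, 8.28 for Gbp2 and 10.66 for Cxcl9. Without that liver Gbp2b and Gbp2 had adjusted p-values of 0.643 and 0.973, 8 of 34 differences were above 0 in place of 22, the median went from 0.08 to -0.14, and Cxcl9 was -0.06 (adjusted p = 0.980). Its MHC class II mean of 7.64 and Kupffer cell marker mean of 9.45 were the highest of its group, and their part was not tested. Of the 72 further pathway genes 1 rose and 4 fell under DCB: the proteasome activator subunit Psme1 (0.59) was higher, and Ifitm3 (-0.64), Mavs (-0.57), H2-K1 (-0.47) and H2-D1 (-0.40) were lower.

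CPA livers were also set directly against DCB livers, a comparison added after the data were seen. In limma 9 members were lower with CPA and none higher, or 26.5%, against 4.11% of all genes called in either direction and 2.37% called lower. They were Usp18 (-1.72 ± 0.22, adjusted p = 1.01e-08), Cxcl9 (-1.65), Ifi27l2a (-1.62), Gbp3 (-1.45), Gbp2b (-1.41), Ifit2 (-1.31), Ifit3 (-0.77), Bst2 (-0.66) and Oas1a (-0.61). For Usp18 the DCB livers read 7.73, 8.78, 7.54, 7.44 and 7.58, so that every CPA liver lay below every DCB liver. Fitted on these 2 groups alone 2 members passed. With each liver left out the count ran from 6 to 14, and it was highest without CPA replicate 2.

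PBO, an inhibitor of cytochrome P450 used with insecticides, had lower values in the GTPases. In limma 4 of 34 members (11.8%) fell and none rose, against 0.808% of all genes called in either direction and 0.319% called lower. All 4 were among the 7 GTPases, with a median log2 difference of -1.09 over those 7, against -0.35 over the 34 members and 0.01 over all genes. The 13 antiviral effectors had a median of -0.13, and Usp18 differed by -0.44 (adjusted p = 0.429).

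Irgm2 (chr11:58214977-58222783), which controls the loading of other immunity-related GTPases onto membranes, read 8.43, 8.33, 9.67, 9.14 and 8.80 in the 5 CMC Co2 livers and 7.91, 7.87, 7.72 and 7.04 in the 4 PBO livers. The groups did not overlap, and the log2 difference was -1.24 ± 0.29 (SE), 2.37-fold lower, with a limma adjusted p of 0.0119. Igtp (chr11:58199556-58207592), also known as Irgm3, read 10.74, 11.12, 11.33, 10.98 and 10.98 in CMC Co2 and 10.27, 9.65, 9.79 and 9.73 with PBO. These groups did not overlap either, with a difference of -1.17 ± 0.28 (adjusted p = 0.0229).

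Gbp2b (chr3:142594816-142619179) read 6.74, 6.40, 6.89, 6.82 and 6.17 in CMC Co2 and 5.53, 4.69, 5.96 and 4.88 with PBO. All PBO livers were below all controls, and the log2 difference was -1.34 ± 0.34 (SE; limma adjusted p = 0.0340). Gbp3 read 8.66, 8.92, 9.23, 7.98 and 8.22 in CMC Co2 and 8.20, 7.11, 7.68 and 7.05 with PBO, overlapping in 1 PBO liver, with a difference of -1.09 ± 0.28 (adjusted p = 0.0334). The immunoproteasome subunits Psmb9 (-0.86, adjusted p = 0.0848) and Psmb8 (-0.71, adjusted p = 0.0641) did not overlap between groups but did not pass. Of the further pathway genes, 4 of 72 fell and none rose: Tap2 (-0.56), H2-D1 (-0.53), H2-K1 (-0.42) and B2m (-0.23), all of antigen presentation on MHC class I.

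**Figure D4:**
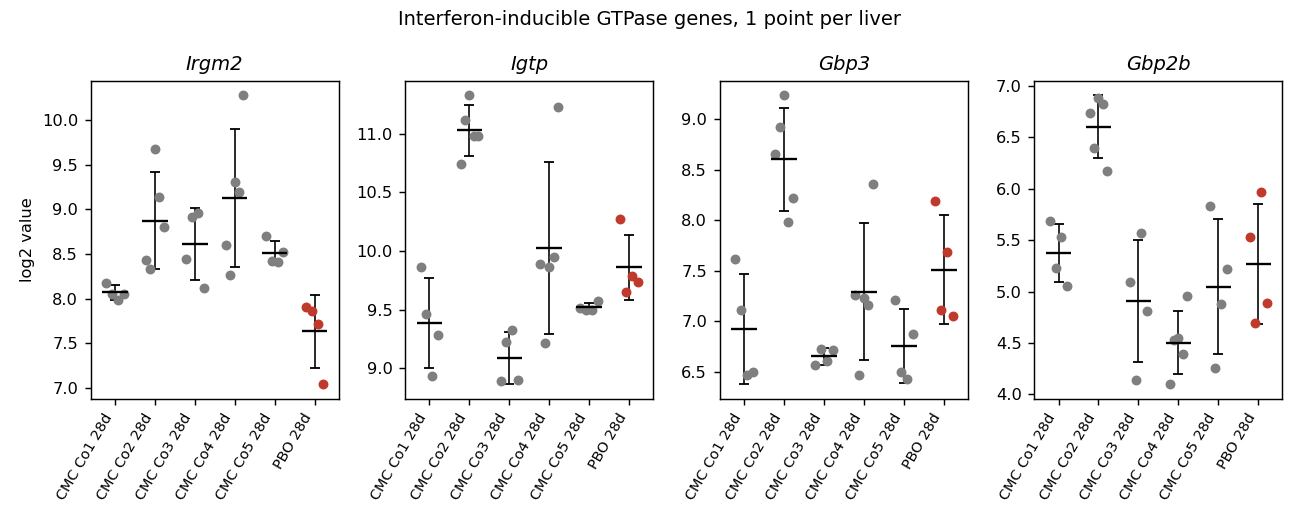
Log2 values of 4 interferon-inducible GTPase genes in the 5 CMC cohorts of C57BL mice (grey) and in PBO livers (red), with group means and SDs. Igtp, Gbp3 and Gbp2b are high in CMC Co2, the control of PBO, where PBO livers overlap with the other cohorts, while for Irgm2 all 4 PBO livers lie below every control liver.

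The PBO calls depend on which control livers they are set against. Against the mean of the 5 CMC cohorts, Irgm2 was still lower (-1.01 ± 0.23, limma adjusted p = 4.47e-04), and its highest PBO liver (7.91) lay below the lowest liver of the other 4 cohorts (7.98), but Igtp (0.05, adjusted p = 0.903), Gbp3 (0.26, adjusted p = 0.420) and Gbp2b (-0.02, adjusted p = 0.970) were not. That mean also joins the controls of intraperitoneal, gavage and food treatments. In that comparison 26.6% of all genes were called, and Bst2 (-0.72), Irgm1 (-0.46) and Irf9 (-0.42) fell while Gbp2 rose (0.99). CMC Co2 had higher neutrophil marker means than the other cohorts (6.54 to 8.77 per liver, 5.08 to 6.44 in the other 4), and the PBO livers read 6.58 to 7.16. All 12 Kupffer cell markers were below 0 under PBO (median -0.52), of which Marco (-1.98) fell, with list means of 6.85 to 8.25 per liver against 7.89 to 8.51 in CMC Co2. CMC Co2 also had higher MHC class II list means (7.19 to 7.66 per liver) than the other cohorts (5.92 to 7.05). With PBO that list read 6.67 to 7.14. The part of these lists in these values was not tested. The count of 4 went to 0 without PBO replicate 4 or CMC Co2 replicate 3, and to 2 without PBO replicate 2 or 3. Gbp3 also did not pass without CMC Co2 replicate 2 (-1.01, adjusted p = 0.0556), nor Gbp2b without CMC Co2 replicate 4 (-1.28, adjusted p = 0.0759). Fitted on these groups alone, only Igtp passed, and Gbp2b (adjusted p = 0.0774), Irgm2 (0.135) and Gbp3 (0.267) did not.

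The CMC cohorts share their strain and vehicle label, yet many members differed among them. In the limma F test over the 5 cohorts 16 of 34 members passed (47.1%), against 33.2% of all genes. The widest ranges of cohort means were those of Cxcl9 (7.17 in Co3 to 10.13 in Co2, adjusted p = 1.14e-07), Gbp2 (4.99 in Co1 to 7.48 in Co2), Gbp2b (4.50 in Co4 to 6.60 in Co2), Gbp3 (6.65 in Co3 to 8.60 in Co2) and Igtp (9.09 in Co3 to 11.03 in Co2). Co2 had the highest cohort mean for 12 of the 16 that passed and Co4 for the other 4, which were Usp18, Bst2, Zbp1 and Irgm2. Co2 and Co4 are the controls of the treatments given intraperitoneally, PBO and CITCO, while Co1 and Co5 are those of treatments by gavage and Co3 that of MePy in food. The labels do not state the route of the vehicle itself, and route and cohort cannot be told apart. Usp18 ranged from 6.94 in Co1 to 8.29 in Co4 (adjusted p = 2.31e-05).

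Of the 13 antiviral effectors, Bst2 and Xaf1 passed (15.4%, against 33.2% of all genes). Their ranges of cohort means ran from 0.14 for Mx1 to 0.92 for Xaf1, and Ifit3 lay between 6.78 and 7.03 (adjusted p = 0.898). Of the 7 GTPases, Gbp2, Gbp2b, Gbp3, Irgm2 and Igtp passed, as did all 3 antigen processing genes. All 12 acute phase markers and 10 of 12 Kupffer cell markers also differed among the cohorts, with cohort means of 10.42 to 13.80 and 6.82 to 8.17. The MHC class II list mean ran from 6.37 in Co5 to 7.41 in Co2. The part of these lists was not tested. Of the 72 further pathway genes 43 passed. Any batch of dosing or of arrays cannot be told apart from the cohorts.

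WY was the only treatment with a member past the threshold upwards against its own control group. In limma 1 of 34 members passed (2.94%), while 10.6% of all genes were called and 5.55% were called higher. Usp18 read 7.02, 6.95, 7.14 and 6.67 in the 4 CMC Co1 livers and 7.56, 7.42, 7.82, 7.91 and 8.002 in the 5 WY livers. The groups did not overlap, and the log2 difference was 0.80 ± 0.23 (SE; adjusted p = 0.0151). Ifi27l2a (0.85, adjusted p = 0.0652), Oasl2 (0.74, 0.0692), Ifit2 (0.73, 0.0560) and Irgm2 (0.52, 0.249) did not pass, although Ifit2 and Irgm2 did not overlap between groups.

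Co1 was the cohort with the lowest Usp18, and against the mean of the 5 cohorts the WY difference was 0.15 (adjusted p = 0.624), with Irf7 (-0.47) and Psmb8 (-0.62) lower instead and 13.6% of all genes called. Usp18 did not pass without WY replicate 5 (0.74, adjusted p = 0.0526) or CMC Co1 replicate 4 (0.71, adjusted p = 0.0601). The count was 5 without WY replicate 1, 3 without WY replicate 3 and 2 without CMC Co1 replicate 1. Of the 72 further pathway genes 9 rose and 4 fell under WY, among them the interferon gamma receptor chain Ifngr2 (0.91), Ifitm1 (1.01), Trim30a (0.81) and Ifi204 (0.77) upwards and Ifitm3 (-0.71) downwards. Kupffer cell markers rose with them, 7 of 12, with list means of 7.30 to 8.46 per liver against 6.58 to 7.18 in CMC Co1, and their part was not tested.

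With Pio no member passed in limma, and 4 genes of all 18193 did (0.022%). All 34 differences were above 0, with a median of 0.25 against 0.02 over all genes, and 3 members had an unadjusted p below 0.05, against 7.66% of all genes. None of the 12 Kupffer cell or 12 acute phase markers passed, but 12 and 11 of them were above 0, with medians of 0.68 and 0.26. Their list means were 6.88 to 7.87 and 10.69 to 12.76 per liver with Pio, against 6.06 to 7.92 and 10.11 to 12.63 in CMC Co5, and their part was not tested. The largest were Cxcl10 (0.64), Oasl1 (0.51), Usp18 (0.48) and Ifi27l2a (0.40), with adjusted p-values from 0.462 to 0.840. Usp18 read 8.20, 7.37, 7.83 and 7.86 in CMC Co5 and 7.85, 8.61, 8.25, 8.62 and 8.15 with Pio, with overlap. Against the mean of the 5 cohorts Usp18 (0.70), Oasl1 (0.60) and Bst2 (0.43) passed, with 5.82% of all genes called. Of the 72 further pathway genes only Tor3a passed under Pio, and it fell (-0.71).

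MePy gave no call among the members in limma, and 0.181% of all genes were called. At an unadjusted p below 0.05, 3 members were higher and none lower, where 6.73% of all genes reached that level. Cxcl9 (0.96), Gbp2b (0.74), Ifi27l2a (0.65) and Ifit2 (0.56) had the largest differences, with adjusted p-values from 0.676 to 0.749. Cxcl9 read 6.78, 7.82, 7.53 and 6.54 in CMC Co3, the cohort lowest for it, and 7.93, 7.13, 9.32, 8.06 and 8.19 with MePy. Against the mean of the 5 cohorts that difference was -0.29 (adjusted p = 0.684).

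PB likewise gave no call in limma at 28 days, where 0.967% of all genes were called, or at 56 days, where 0.566% were. At an unadjusted p below 0.05 there were 2 members at 28 days, both higher, against 9.07% of all genes, and 0 at 56 days, against 6.78%. The median member difference was 0.08 at 28 days and 0.02 at 56 days. At 28 days the largest were Gbp2b (0.61), Cxcl9 (0.43), Cxcl10 (-0.43) and Irgm1 (0.40). At 56 days they were Cxcl9 (-0.51), Ifi27l2a (0.40), Psmb9 (-0.39) and Rsad2 (0.30). Of the 72 further pathway genes only Trim25 (-0.44) passed at 28 days, and only Ifnar2 (0.47), a chain of the type I receptor, at 56 days. No member differed between the 56-day and 28-day responses (0% of all genes called; at an unadjusted p below 0.05, 0 members and 4.83% of all genes).

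CITCO gave no call in either strain in limma. Of all genes 0.0055% were called in C57BL and 0.0989% in hCAR/hPXR mice. At an unadjusted p below 0.05, 4 members were lower in C57BL mice, against 4.80% of all genes at that level. In hCAR/hPXR mice 6 members were lower and 1 higher, where 1274 of the 18193 genes reached it. Cxcl9 had the largest difference in both, -1.04 (95% interval -1.96 to -0.13) in C57BL and -0.93 (-1.85 to -0.01) in hCAR/hPXR mice, with adjusted p-values of 0.976 and 0.703. It read 8.86, 8.88, 8.75, 9.77 and 10.95 in CMC Co4 and 8.27, 8.22, 8.37, 8.90 and 8.23 with CITCO, with 4 of 5 treated livers below all controls. Igtp (-0.77 in C57BL and -0.54 in hCAR/hPXR mice), Gbp2 (-0.59 and -0.78), Zbp1 in C57BL (-0.75) and Psmb9 in hCAR/hPXR mice (-0.66) followed, and Psmb9 and Igtp did not overlap in hCAR/hPXR mice.

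The test of the difference between the CITCO responses of both strains called no member (0.0055% of all genes called; at an unadjusted p below 0.05, 0 members and 2.02% of all genes). Against the mean of the 5 cohorts, CITCO in C57BL mice had Usp18 higher (0.91, adjusted p = 1.23e-04) and Gbp2b (-1.08) and Stat2 (-0.41) lower, with 10.4% of all genes called. The cohort CMC Co4 was itself the highest of the 5 for Usp18 and the lowest for Gbp2b.

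In control livers, hCAR/hPXR mice had 6 members higher and 1 lower than C57BL controls, taken as the average over the 5 CMC cohorts. These are 20.6% of the set, against 8.67% of all genes in limma (4.94% higher and 3.73% lower). Higher were Cxcl9 (1.07), Gbp2 (0.94), Ifi27l2a (0.75), Zbp1 (0.69), Oas1a (0.46) and Psmb8 (0.45), and Gbp2b was lower (-0.82), with adjusted p-values from 0.00752 to 0.0482. The count was 0 without hCAR/hPXR replicate 4, 2 without replicate 3 or 5, and 4 without CMC Co3 replicate 1, CMC Co4 replicate 2 or CMC Co5 replicate 2. In the same comparison 11 of 12 acute phase markers and 7 of 12 Kupffer cell markers were higher, and their part was not tested. Of the 72 further pathway genes 12 were higher and 1 lower. The C57BL average joins the controls of intraperitoneal, gavage and food treatments, while the hCAR/hPXR controls are those of intraperitoneal CITCO. The mean of the 34 members was 7.81 in the hCAR/hPXR controls, 7.95 in CMC Co2 and 7.64 in CMC Co4. In the other C57BL cohorts it was 7.28 to 7.43. Strain, cohort and the route of the treatment served cannot be told apart.

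Levels of the members across the 19 groups spanned unequal ranges. Cxcl9 had the widest span of group means, 3.31 on the log2 scale, from 6.82 in CPA to 10.13 in CMC Co2. Gbp3 followed with 2.93 (CPA to CMC Co2), Gbp2 with 2.49 (CMC Co1 to CMC Co2) and Usp18 with 2.40 (6.09 in CPA to 8.50 in CITCO). Mx1, a dynamin-like antiviral GTPase, spanned 0.33 with group means from 4.15 to 4.47, and Iigp1 spanned 0.46 from 12.55 to 13.01. The within-group SD was 0.22 for Iigp1 and 0.35 for Usp18, but 0.76 for Cxcl9 and 0.82 for Cxcl10.

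Livers of one group that were high in one member tended to be high in others. After each group's mean was removed, the 561 pairs of members had a median Pearson correlation of 0.418 over the 91 livers, and 29.2% of pairs reached 0.5. Over all pairs of genes the median was 0.002 and 0.886% reached 0.5. The points share their arrays, and no test was made. Most alike were Psmb8 and Psmb9 (0.840), which lie close together on chromosome 17, Irgm2 and Igtp (0.829), neighbours on chromosome 11 and partners in the promoter run above, Xaf1 and Rtp4 (0.818), Irf1 and Cxcl10 (0.818) and Ifit1 and Ifit3 (0.810). Without CPA replicate 2 and DCB replicate 2 the median over the pairs was 0.333, 16.4% reached 0.5, and the correlation of Irf1 with Cxcl10 was 0.591, that of Irgm2 with Igtp 0.789 and that of Psmb8 with Psmb9 0.826.

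**Figure D5:**
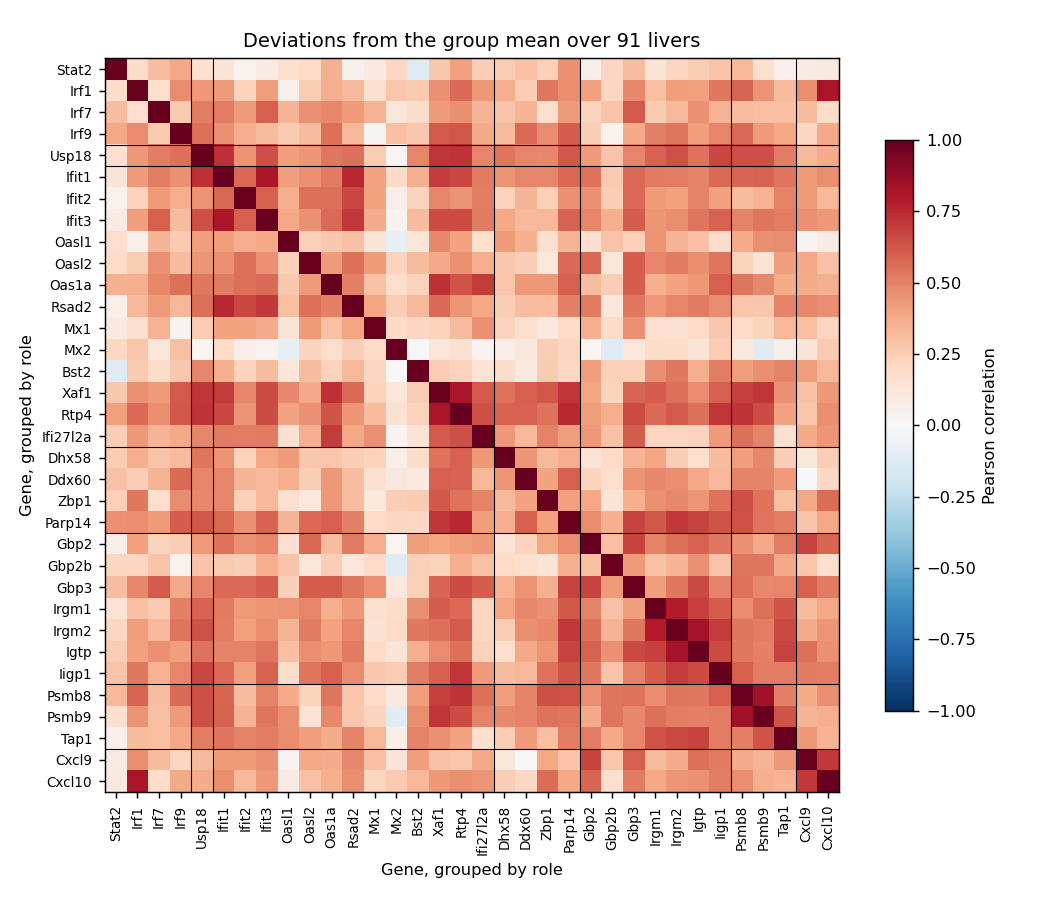
Pearson correlation between each pair of members over 91 livers after subtraction of the group means, with genes ordered by role and lines between roles. Most pairs are above 0, with a median of 0.418, Psmb8 with Psmb9 reaches 0.840, and Mx2 and Stat2 are the least like the others.

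Against the mean of the other members, Rtp4 (0.80), Gbp3 (0.79) and Ifit1 (0.78) had the highest correlations, and Stat2 (0.28) and Mx2 (0.18) the lowest. The 5 genes outside the set whose deviations over the 91 livers were most like the mean of the members were Gbp7 (0.860), Gbp6 (0.814), Ifi47 (0.805), Calhm6 (0.749) and Cd274 (0.735), which encodes PD-L1. Of these, Gbp7, Gbp6 and Ifi47 are on the list of further interferon-induced genes.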

How the data were processed

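The authors deposited 1 log2 value per probe set and array, made with RMA per the submitters' processing notes. No software version is named there. RMA equalises the arrays' distributions and compresses differences near the ends of the scale. The number of arrays limits precision. Of 45037 probe sets, 34945 named a single gene in the supplied platform annotation, and each gene took the one with the highest mean. GTPase, Ifit and Oas genes have close relatives, so their probe sets may share signal. All 91 arrays in 19 groups were fitted with 1 coefficient per group in limma 3.58.1 (R 4.3.3, 72 residual degrees of freedom, mean-variance trend), and two-sided p-values were adjusted by Benjamini-Hochberg over 18193 genes per comparison. The fit was tested on simulated data. Replicates are taken as separate mice. The titles of the PB 28-day arrays carry "(2)", whose meaning is not given. Members and lists were chosen with earlier results of these data known. Named are the members past the threshold, or, with fewer than 3, the 4 largest other differences, up to 5 further pathway genes per comparison, and the 5 genes most like the members. Irf1, Stat2, Cxcl10 under CPA and other members outside that rule were picked after their values were seen. Python 3.11.15 read promoters. Alternatives covered the probe set, trend, robust fit, dim genes, centring, array weights, groups fitted, replicate block, controls and leaving out each liver.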

Additional observations from a re-analysis of the deposited data

Results flagged for a closer look

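Dixon's criterion was applied to 43 sets of values: the member mean in each group, and each called member in its treated and control groups. In 4 of the 43, 1 liver lay far from the others. Chance does this in about 1 of 20 independent sets, but these sets share livers and are not independent. The mean of the 34 members was 8.52 in DCB replicate 2, where the next liver read 7.47. It was 7.19 in WY replicate 1, where the next lowest read 7.51. Irf7 was 6.65 in CPA replicate 1 against 7.06 in the next lowest, and 7.96 in CO replicate 5 against 7.71 in the next highest.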

How the results depend on the processing

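For named members, 344 of 370 values under other settings and 390 of 423 with 1 liver left out kept their direction and side of the threshold. Most of these members were not called in the main fit, and only called members can lose a call. Calls were lost without a change of sign in 26 values with 1 liver left out and in 19 under other settings. Under other settings 4 more values changed sign, and among these Igtp and Gbp3 with PBO also lost their calls. With 1 liver left out, Gbp3 under PBO lost its call in 5 of 9 fits and Usp18 under CPA in 0 of 10. With array weights the counts of members called were 13 for CPA, 1 for PBO, 2 for WY and 15 for CPA against DCB. With only the groups compared they were 1 for PBO and 2 for CPA against DCB. Replicate numbers did not pair the mice, as no comparison had every pair of same-numbered livers correlated above 0.1. With a replicate block they were 0 for PBO, 0 for WY and 5 for CPA against DCB. With the mean of the CMC cohorts as control they were 3 for CITCO, 3 for Pio and 2 for WY. Under that control the differences of Cxcl9 with MePy (-0.29), Igtp (0.051) and Gbp3 (0.26) with PBO and Irgm2 with WY (-0.0517) changed sign, as did Cxcl9 with DCB without DCB replicate 2 (from -0.0585 to 0.80 with each liver left out). With each liver left out, counts ran from 4 to 11 for CPA, 0 to 6 for PBO, 0 to 5 for WY, 6 to 14 for CPA against DCB, 0 to 8 for hCAR/hPXR controls and 14 to 20 for the cohorts. The cause was not tested in any of these. Weak signals such as Mx1, near the lower end of the scale, may limit the differences that could be seen.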
